A study of Mus musculus with 10 samples.

Results

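The genes described here are the BMP ligands Bmp4 and Bmp7, the inhibitory Smad6, the 4 Id genes and the homeobox genes Msx1 and Msx2. They were chosen with earlier results of these data known, and their probes were taken by name from the probe annotation. It names a single gene for 16632 of 21766 probes, 15063 genes in all. Each of the 9 genes had 1 probe. The rostral and caudal ends of mouse neocortex at E11.5, midway through gestation, were compared, and a pool held tissue of 3 embryos. The outbred stock MF1 gave 3 pools on 6 arrays and the inbred strain C57 gave 2 pools on 4 arrays. No genetic change or treatment is named for either, pools were taken within single litters, and whether pools of a strain shared a litter is not stated. The caudal and the rostral RNA of a pool were hybridised together on a 2-colour array, and again with the dyes exchanged. Values below are log2 ratios of caudal to rostral RNA, positive where the caudal end held more.

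Bone morphogenetic proteins (BMPs) are secreted signals of the dorsal midline of the telencephalon, made by the roof plate and later by the cortical hem and choroid plexus at the medial edge of the cortex. They bind paired serine-threonine kinase receptors, which phosphorylate Smad1, Smad5 and Smad9, and these enter the nucleus with Smad4. The Id genes are direct targets of this pathway; Id proteins lack a DNA-binding region and hold E proteins away from neurogenic bHLH factors. Msx1 and Msx2 encode homeobox repressors induced by BMPs in the dorsal midline, and Smad6 is a feedback inhibitor that the pathway induces.

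The Id promoters are shown because Id genes are direct Smad targets, and their start regions differ in the short words that Smads bind. RefSeq promoter sequences (GRCm38.p6) were matched for 7 of the 9 genes, and not for Id1 and Bmp7. The 250 bases before the gene start are printed 5′ to 3′ for the Id genes, with capitals marking each GGCGCC, a GC-rich word bound by Smad1 and Smad5, and each CAGAC or its reverse complement GTCTG, a word bound by Smad4.
Id2, chr12:25096093-25096342, minus strand: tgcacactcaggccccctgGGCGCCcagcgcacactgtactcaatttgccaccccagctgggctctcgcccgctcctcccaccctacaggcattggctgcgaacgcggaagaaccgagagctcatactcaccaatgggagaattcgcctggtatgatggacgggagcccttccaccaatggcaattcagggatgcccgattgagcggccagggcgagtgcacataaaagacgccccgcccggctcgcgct
Id3, chr4:136143572-136143821, plus strand: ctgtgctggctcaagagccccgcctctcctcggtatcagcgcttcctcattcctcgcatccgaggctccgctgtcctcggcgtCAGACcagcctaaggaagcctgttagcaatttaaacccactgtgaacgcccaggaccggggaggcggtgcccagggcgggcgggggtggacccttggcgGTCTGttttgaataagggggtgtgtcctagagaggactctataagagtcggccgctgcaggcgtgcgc
Id4, chr13:48260866-48261115, plus strand: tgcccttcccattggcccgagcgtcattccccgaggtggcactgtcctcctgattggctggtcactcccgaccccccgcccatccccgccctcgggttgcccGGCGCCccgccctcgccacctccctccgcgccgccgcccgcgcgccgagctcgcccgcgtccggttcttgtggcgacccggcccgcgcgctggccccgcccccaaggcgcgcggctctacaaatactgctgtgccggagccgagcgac
Both strands were searched, and the words can share 1 base, but no window printed here held both. Id3 held 2 copies of CAGAC, starting 167 and 68 bases before the gene start, and no GGCGCC. Id2 and Id4 each held 1 GGCGCC, starting 231 and 148 bases before the start, and no CAGAC. Neither word lay in the windows of Bmp4, Smad6, Msx1 or Msx2. Of 32851 promoter windows of this length, 42.2% held CAGAC and 9.59% held GGCGCC, so such matches are common and describe these letters only.

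The direction of the ratios is likely but not stated with the deposited values. They were read as Cy5 over Cy3 by the dye labels. With this reading Nr2f1, a nuclear receptor known for a caudal gradient, stood at 1.85 ± 0.22 and 0.57 ± 0.20 (SE, n = 5 pools) at its 2 probes, the second with -0.30 in MF1 pool 1. Spry1, a target of the rostral FGF signals, stood at -1.28 ± 0.14. With the opposite reading every sign here would turn together. Testing needed 2 or more pools per strain with both dye orders present, a filter that left 11855 probes. Over these the pool medians were -0.18, 0.13 and 0.15 in MF1 and -0.10 and 0.36 in C57, since the arrays were not centred. The SDs over the same probes were 0.55, 0.77 and 0.67 in MF1 and 0.45 and 0.30 in C57. Ratios thus spread most in MF1 pools 2 and 3. Within a pool, the 2 arrays turned to caudal over rostral correlated across tested probes with a Pearson r between -0.12 and 0.01. For most probes, then, exchanging the dyes did not return the same ratio. Probes are not independent replicates, and the number of arrays limits the precision.

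Of the 9 genes, 6 passed the probe filter: Bmp4, Bmp7, Id1, Id2, Id3 and Msx2. All 6 had a positive mean ratio over both strains, as had 69.4% of all tested probes, so the shared sign is not particular to them. Their median was 0.28, against 0.09 over all tested probes. With Benjamini-Hochberg adjustment of limma's p, none reached 0.05, and 0% of all 11855 probes did. Id1 and Id3 had an unadjusted limma p under 0.05 with a positive ratio, which 1.98% of all probes had. With each array centred on its median both genes again had an unadjusted p under 0.05, as had 2.28% of probes with a positive ratio. Without C57 pool 2 neither gene had one, and without C57 pool 1 only Id3 did. Because the genes were chosen with earlier results of these data known, the p values and shares here do not come from an independent choice. In a pool, a ratio cannot tell fewer cells that express a gene from less RNA per cell.

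Id1 and Id3 stood furthest to the caudal side. Id1, an inhibitor of bHLH factors and a common readout of BMP signalling, had pool ratios of 0.34, 1.51 and 1.53 in MF1, against 0.37 and 0.63 in C57. All 5 pools were positive, and MF1 pools 2 and 3 lay above the other 3. The mean over both strains was 0.81 ± 0.23 (SE, n = 5 pools; 95% interval 0.25 to 1.38), a 1.76-fold difference. The unadjusted p was 0.0132 and the limma adjusted p 0.983. By exact sign changes of the 5 pools the two-sided p was 0.0625, the smallest that 5 pools can give.

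Id3, a close relative of Id1 that is often induced with it, had pool ratios of 0.16, 0.91 and 1.26 in MF1, against 0.30 and 0.95 in C57. It too was positive in all 5 pools, with MF1 pool 1 and C57 pool 1 the lowest. The mean was 0.70 ± 0.22 (SE, n = 5 pools; 95% interval 0.16 to 1.24), a 1.63-fold difference with an unadjusted limma p of 0.02, an adjusted p of 0.983 and an exact sign-change p of 0.0625. Id1 and Id3 lay at the 99.1 and 98.3 percentiles of the ratios of all tested probes. Id1 was above Id3 in 4 of 5 pools, by 0.16 ± 0.34 on average (SD, n = 5 pools), less than the spread between pools.

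**Figure D1:**
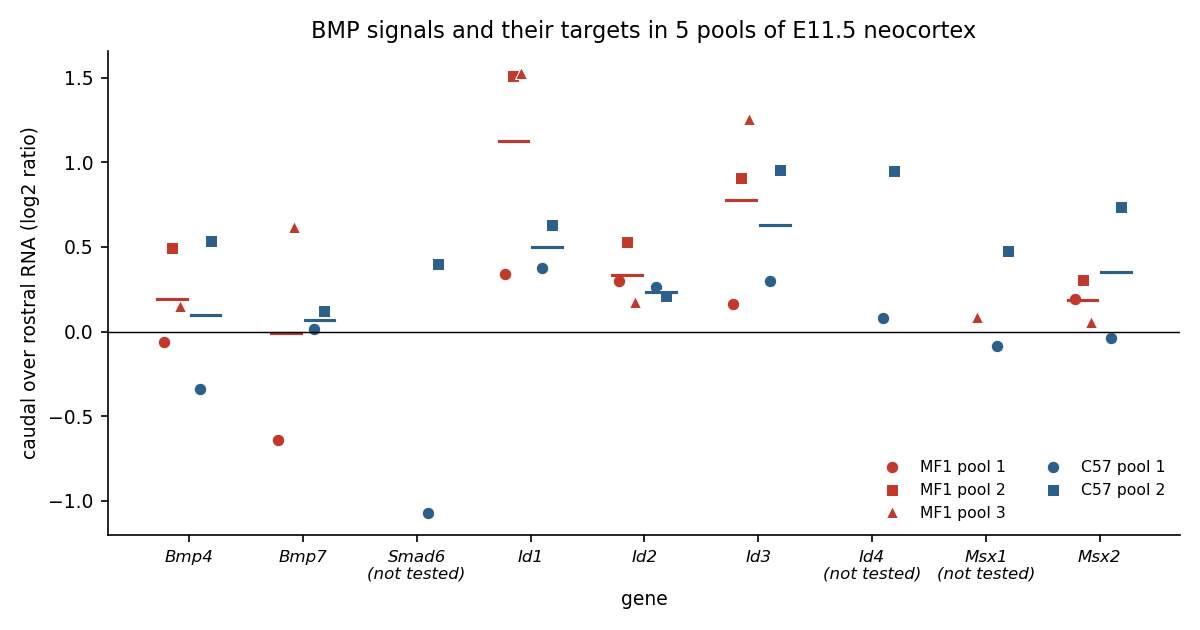
Caudal over rostral log2 ratios of the 9 genes, 1 point for each pool with both dye orientations measured, MF1 in red left of C57 in blue; bars are the strain means of tested genes. Id1, Id2 and Id3 lie above 0 in all 5 pools, and Smad6 and Id4 have no complete MF1 pool.

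Id2, another inhibitor of bHLH factors with broad expression in the embryonic brain, had smaller ratios. The pools stood at 0.30, 0.53 and 0.17 in MF1, against 0.26 and 0.21 in C57. All were positive, and the strains overlapped. The mean was 0.29 ± 0.14 (SE, n = 5 pools; 95% interval -0.06 to 0.63), with an unadjusted limma p of 0.0908, an adjusted p of 0.983 and an exact sign-change p of 0.0625. With each array centred, the Id2 pools stood at 0.49, 0.44 and 0.05 in MF1, against 0.44 and -0.16 in C57. Id1 was above Id2 in 5 of 5 pools, by 0.58 ± 0.57 (SD, n = 5 pools). Of the 5 tested genes with values in all 5 pools, Id1, Id2 and Id3 were positive in each pool, as were 4.16% of the 8924 probes so measured. With each array centred on its median, Id1 and Id3 stayed positive in all 5 pools and Id2 in 4, against 5.84% of probes in all 5.

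Id1 and Id3 also kept their sign when the dyes were exchanged. Where caudal RNA was in Cy5, Id1 had 0.33, 1.63 and 1.45 in MF1 and 0.15 and 0.73 in C57. With caudal RNA in Cy3 it had 0.35, 1.39 and 1.61 in MF1 and 0.60 and 0.53 in C57. Id1 was thus positive on 10 of 10 arrays, and its mean was nearly the same in both orientations, 0.86 and 0.90.

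Where caudal RNA was in Cy5, Id3 had 0.12, 0.99 and 1.23 in MF1 and 0.29 and 1.05 in C57. With caudal RNA in Cy3 it had 0.20, 0.83 and 1.28 in MF1 and 0.32 and 0.86 in C57. The 2 arrays of a pool differed by 0.20 at most, and by 0.10 on average, where the median probe differed by 0.50. After centring, the average gap was 0.27 for Id3 and 0.37 for Id1, against 0.41 for the median probe, so the closeness rests on the ratios as deposited. The sign did not: both genes were positive on all 10 arrays with and without centring. Of the 5 genes measured on all arrays, Id1 and Id3 were positive on all 10, as were 0.403% of the 8924 probes measured there, or 1.03% after centring. None of the 5 was negative on all 10, as were 0.213%.

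Id2 was positive on 9 of 10 arrays, the exception being -0.09 in C57 pool 2 with caudal RNA in Cy3, and on 7 after centring. Msx2 was positive on 9 of 10 as deposited and on 8 after centring. Bmp4 was positive on 6 of 10 as deposited and on 8 after centring. Its mean was 0.35 with caudal RNA in Cy5 and -0.04 with caudal RNA in Cy3, an average gap of 0.58 within a pool, and 0.34 after centring. The median probe had gaps of 0.50 and 0.41.

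**Figure D2:**
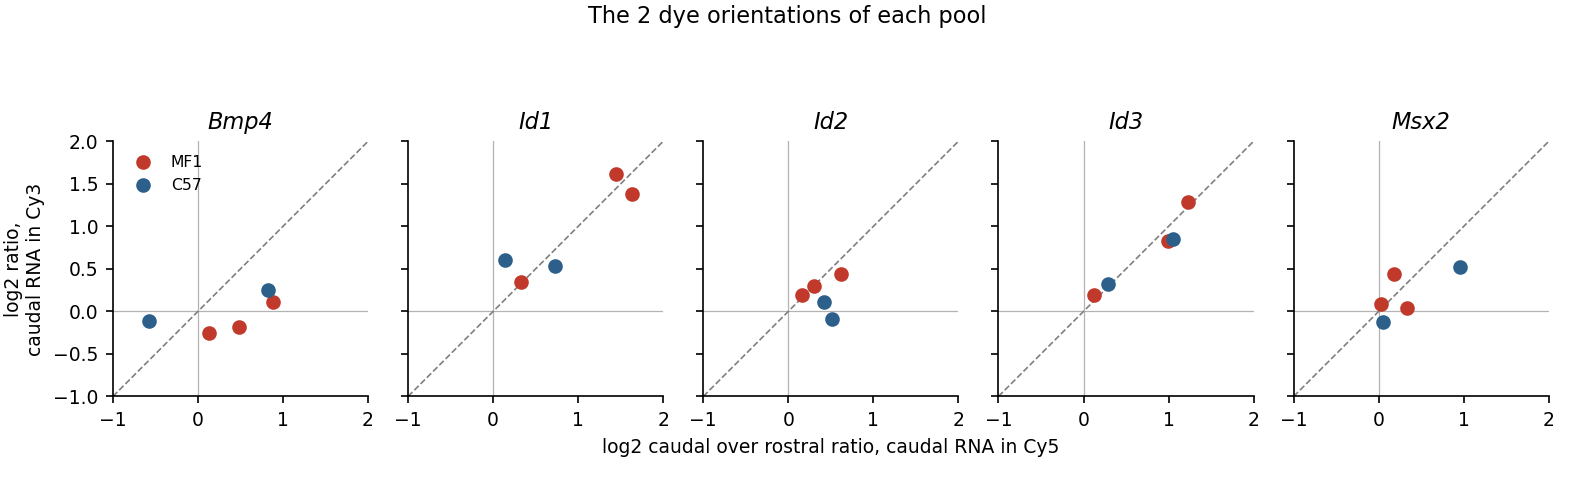
Each point is 1 pool, with its caudal over rostral log2 ratio with caudal RNA in Cy5 on the x axis and in Cy3 on the y axis, for the 5 genes measured on all 10 arrays; the dashed line marks equal values. Id3 points follow the line and Id1 points lie near it, all above 0 on both axes, while Bmp4 points lie to the right of the line apart from 1 C57 pool.

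Msx2, a homeobox repressor of the dorsal midline, had pool ratios of 0.19, 0.31 and 0.06 in MF1, against -0.04 and 0.74 in C57. As deposited, only C57 pool 1 was negative, and the highest value was that of C57 pool 2. The mean was 0.27 ± 0.17 (SE, n = 5 pools; 95% interval -0.16 to 0.69), with an unadjusted limma p of 0.173 and an adjusted p of 0.983. Without C57 pool 2 the mean was 0.07. With each array centred, the Msx2 pools stood at 0.38, 0.22 and -0.06 in MF1, against 0.14 and 0.37 in C57. Its relative Msx1 was not tested, with complete pools at 0.09 in MF1 pool 3 and at -0.09 and 0.47 in C57. Single arrays of MF1 pools 1 and 2, both with caudal RNA in Cy5, gave 0.84 and -0.03 for Msx1.

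The ligands lay near the middle of all probes. Bmp4, a ligand of the roof plate and cortical hem, had pool ratios of -0.06, 0.50 and 0.15 in MF1, against -0.34 and 0.54 in C57. As deposited, the pools of each strain lay on both sides of 0. The mean was 0.15 ± 0.19 (SE, n = 5 pools; 95% interval -0.33 to 0.62), with an adjusted limma p of 0.983, and it was -0.07 without C57 pool 2. With each array centred, the Bmp4 pools stood at 0.13, 0.41 and 0.03 in MF1, against -0.16 and 0.17 in C57. Bmp4 lay below Id1 and below Id3 in 5 of 5 pools. The mean difference was -0.72 ± 0.50 for Bmp4 minus Id1 and -0.56 ± 0.34 for Bmp4 minus Id3 (SD, n = 5 pools), each with an exact sign-change p of 0.0625, or 0.268 when adjusted over the 15 pairs of tested genes.

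Bmp7, a ligand also made in the dorsal midline and the meninges, was complete in 4 pools, with -0.64 and 0.62 in MF1 pools 1 and 3, against 0.02 and 0.12 in C57. The MF1 pools thus pointed in opposite directions and the C57 pools were, as deposited, close to 0. The mean was 0.03 ± 0.26 (SE, n = 4 pools; 95% interval -0.65 to 0.71), with an adjusted limma p of 0.99. Without MF1 pool 3 it was -0.29. With each array centred, the Bmp7 pools stood at -0.45 and 0.50 in MF1, against 0.20 and -0.25 in C57. Caudal or rostral differences inside the 95% intervals of Bmp4 and Bmp7 are compatible with the values of these pools. The intervals are not limits of detection. Id1, with a larger mean of 0.81 over both strains, also had an adjusted limma p of 0.983.

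Smad6 and Id4 were complete in C57 alone. Smad6 had -1.07 and 0.40 in C57 pools 1 and 2, and the 2 arrays of pool 1 differed by 1.48. Single arrays of MF1 pools 2 and 3 gave -0.75 and 0.52. Id4, an inhibitor of bHLH factors known for its place in cortical progenitors, had 0.08 and 0.95 in the C57 pools. The 1 MF1 array with a value for Id4, of pool 1 with caudal RNA in Cy5, gave 4.17, and the exchanged array gave none. No member value lay at the shared highest value of the table, which was treated as missing.

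**Figure D3:**
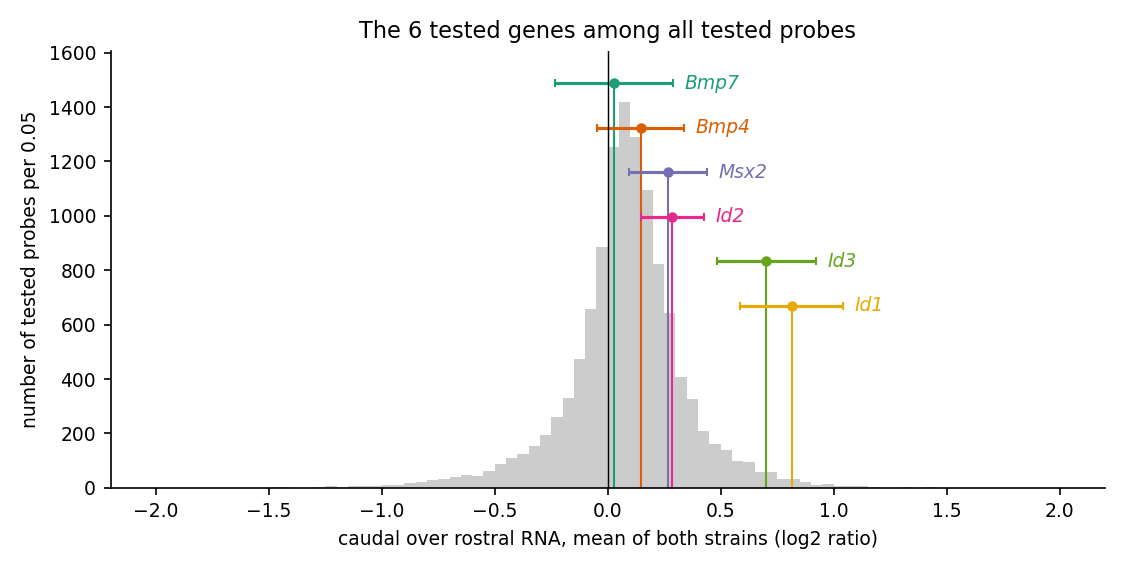
Number of tested probes (y axis, bins of 0.05) by mean caudal over rostral log2 ratio of both strains (x axis), with the 6 tested genes as coloured points ± SE. Bmp7 and Bmp4 lie within the bulk of the probes, Msx2 and Id2 on its caudal shoulder, and Id3 and Id1 in its caudal tail.

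The next question was whether each strain shows the ratio by itself and whether the strains differ. In MF1, Id1 had 1.13 ± 0.29 and Id3 0.78 ± 0.28 (SE, n = 3 pools; 1 spread estimate serves both strains). In C57, Id1 had 0.50 ± 0.36 and Id3 0.63 ± 0.34 (n = 2 pools). Unadjusted limma p values under 0.05 were seen for Id1 (0.00903) and Id3 (0.0331) in MF1, where 1.55% of probes had one with a positive ratio. None of the 6 genes had one in C57, where 1.44% did, and none passed an adjusted p of 0.05 in either strain. The C57 p values of Id1 and Id3 were 0.21 and 0.117.

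Passing in 1 strain alone does not show that the strains differ. The MF1 minus C57 difference was 0.62 ± 0.46 for Id1 (95% interval -0.51 to 1.76) and 0.15 ± 0.44 for Id3 (95% interval -0.94 to 1.23), with an adjusted limma p of 0.999 for both. The Id1 difference was 0.27 with each array centred and scaled and 1.02 without MF1 pool 1. None of the 6 genes had an unadjusted p under 0.05 for the difference, as 0.548% of probes had upward and 1.33% downward. In none of the 6 did the MF1 pools all lie above the C57 pools or all below, as they did for 2.06% and 15.2% of probes. Id2 had 0.34 ± 0.18 in MF1 and 0.24 ± 0.22 in C57, Msx2 0.19 ± 0.22 and Bmp4 0.20 ± 0.24 in MF1. In C57, Msx2 had 0.35 ± 0.27 and Bmp4 0.10 ± 0.30.

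Other genes of the pathway were read from lists written with earlier results of these data known. The 4 lists of further ligands, receptors, Smads and extracellular antagonists named 45 genes, of which 39 had a probe and 14 were tested, by 15 probes. No probe passed an adjusted p of 0.05, 8 ratios were positive and 7 negative, and 1 had an unadjusted p under 0.05. Over all tested probes 69.4% of ratios were positive and 3.1% had such a p, so 1 of 15 is near the share of all probes.

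All 6 tested probes of other ligands were positive, as were 69.4% of all probes, with a median of 0.34. The 1 with an unadjusted p under 0.05 was Gdf5, a ligand known from joint formation, at 0.44 ± 0.16 (SE, n = 5 pools). Bmp5, a dorsal midline ligand, had -0.28, 2.03 and 1.65 in MF1 against -0.16 and 0.46 in C57, a mean of 0.64 ± 0.37. As with Id1, MF1 pools 2 and 3 were the highest, the pools in which the ratios of all tested probes spread most. Bmp2 had 0.24 ± 0.18 and 0.57 ± 0.28 at its 2 probes, the second from 4 pools.

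The receptors lay clearly to neither side. All 3 tested probes had negative means, where 69.4% of all tested probes were positive, but each was smaller in size than its SE. Their median was -0.11 over both strains, 0.02 in C57 and -0.19 in MF1. The smallest p was that of Bmpr1b, a type I receptor, at -0.13 ± 0.23. Of the 2 tested Smads, Smad5, a carrier of the BMP signal, had 0.09 ± 0.23 and Smad4, the shared partner, -0.06 ± 0.20. Of 4 tested antagonists 3 were negative, with a median of -0.21, and Chrdl1, a secreted BMP-binding protein, stood at -0.21 ± 0.24 from 4 pools. Noggin and follistatin, the best known antagonists, were not tested for lack of complete pools.

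The binding partners of Id proteins had a median of 0.31 over 4 probes. Tcf4, an E protein, had 0.30 ± 0.14 and 0.34 ± 0.24 at its 2 probes, Tcf12 had 0.32 ± 0.19 and Tcf3 -0.06 ± 0.16. Of the bHLH factors, 3 of 4 tested were positive, with a median of 0.35, where 69.4% of all tested probes were positive. Neurod1, a neurogenic factor, had 0.64, 0.54 and 0.75 in MF1 and 0.73 and 0.92 in C57, a mean of 0.74 ± 0.14 with an adjusted limma p of 0.983. Both the inhibitor genes Id1 and Id3 and the neurogenic gene Neurod1 therefore had positive ratios in all 5 pools. Neurog2, which acts before Neurod1, had 0.34 ± 0.16. Of the Notch targets, Hes1 had -0.16 ± 0.22 and Hes5 0.37 ± 0.26, the latter from 4 pools.

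**Figure D4:**
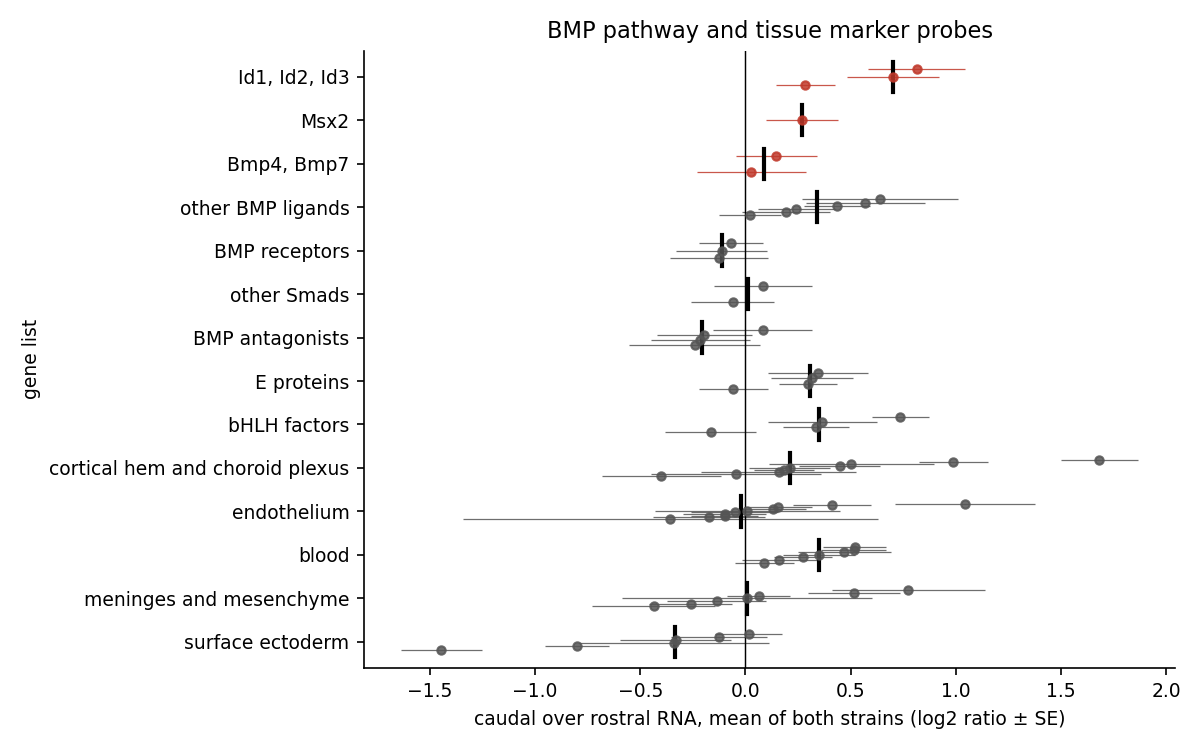
Caudal over rostral log2 ratios (mean of both strains ± SE) of tested probes, by gene list, with a black bar at the median of each list; the described genes are in red. The Id genes have a list median of 0.70, the other BMP ligands 0.34 and the BMP antagonists -0.21.

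Markers of neighbouring tissues that express Id or BMP genes varied among themselves and between pools. Of 9 tested cortical hem and choroid plexus markers 7 were positive, as were 69.4% of all tested probes. The median of these markers was 0.21, with pool medians of 0.38, 0.18 and 1.14 in MF1, against -0.09 and 0.48 in C57. Ttr, the thyroid hormone carrier of the choroid plexus, had 1.68 ± 0.19, with 0.65, 1.56 and 1.39 in MF1 against 2.21 and 2.13 in C57. Rspo3, an enhancer of WNT signalling made in the hem, had 0.84, 1.25 and 1.45 in MF1 against 0.62 and 0.98 in C57, a mean of 0.99 ± 0.16. Ttr was highest in C57, whereas Rspo3, like Id1, was highest in MF1 pools 2 and 3. The ratios of all tested probes also spread most in those pools. Lmx1a, a hem transcription factor, had 0.45, 0.18 and 2.34 in MF1 against -0.69 and 0.71 in C57. The 2 negative means were those of Wnt8b, at -0.04 ± 0.40, and Msx3, at -0.40 ± 0.28 from 4 pools.

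Endothelial markers, listed because vessels express Id1 and Id3, were positive for 5 of 10 probes, with a median of -0.02 and pool medians of -0.27, 0.12 and 0.03 in MF1, against -0.05 and 0.47 in C57. Esam, an adhesion molecule of vessels, had 1.04 ± 0.33 from 4 pools, and the receptor Kdr 0.13 ± 0.16. The 5 negative means, of Cdh5, Flt1, Tek, Emcn and Sox17, lay between -0.36 and -0.05. All 7 blood probes had positive means, as had 69.4% of all tested probes. The blood median was 0.35, with pool medians of -0.01, 0.21 and 0.18 in MF1, against 0.64 and 0.58 in C57. The probe of the globin Hba-a1 and the 2 probes of the globin Hba-x lay between -0.01 and 0.04 in every MF1 pool. Hba-a1 also stood at 0.003 in C57 pool 2. These probes are among the 7 behind the blood medians, and why they lay so near 0 was not tested. Hbb-y, an embryonic globin, had 0.52 ± 0.15. Meningeal and mesenchymal markers were positive for 4 of 7 probes with a median of 0.01, and Fbn2, a fibrillin, had 0.52 ± 0.22. The negative means were those of Col1a2, at -0.26 ± 0.20, Col3a1, at -0.44 ± 0.29 from 4 pools, and Twist1, at -0.14 ± 0.24.

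Surface ectoderm, another site of BMP signalling, had 1 positive of 6 probes and a median of -0.34, with Krt18, a keratin, at -1.45 ± 0.19 from 4 pools. Ventral telencephalon markers were positive for 4 of 8 probes with a median of -0.11, and Dlx2, a homeobox gene, had -0.76 ± 0.15. Markers of the cortical neuroepithelium itself were positive for 6 of 8 probes with a median of 0.08, and Lhx2, a cortical selector gene, had 0.32 ± 0.15. Of all tested probes 69.4% were positive. The table holds ratios only, so no level of any marker can be given. The part of these tissues in the ratios of Id1 and Id3 was not tested.

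The probes most like the mean of Id1 and Id3 were found by the root-mean-square difference of centred ratios over the 5 pools, among 7526 named probes. The nearest was Psap, a lysosomal precursor protein, at a distance of 0.09. Its centred ratios were 0.35, 1.01 and 1.14 in MF1 and 0.51 and 0.37 in C57, where the mean of Id1 and Id3 had 0.44, 1.12 and 1.27 in MF1 and 0.52 and 0.42 in C57. Sat2, an acetyltransferase, followed at 0.18, Timp3, a metalloproteinase inhibitor, at 0.18, Igsf3, an immunoglobulin family protein, at 0.22 and 1 probe of Ccnd2, cyclin D2, at 0.23. A second Psap probe was not among the nearest 5. By the same distance Id2 stood at 0.68, Bmp4 at 0.73 and Msx2 at 0.74, at percentiles of the distances from 18 for Id2 to 27 for Msx2. Many named probes were thus nearer to Id1 and Id3 than these 3 genes were.

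**Figure D5:**
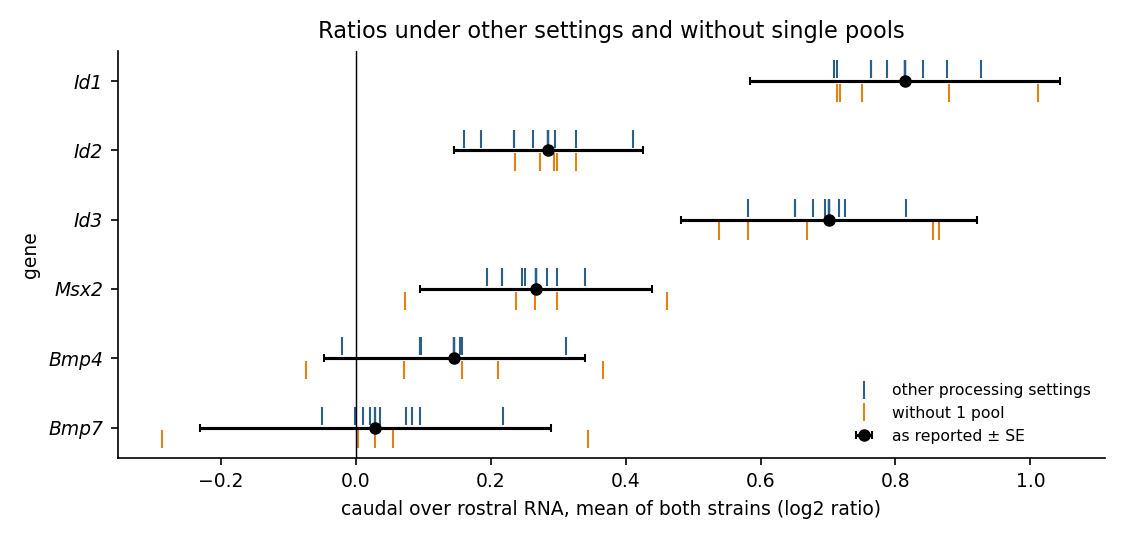
Mean caudal over rostral log2 ratio of both strains for the 6 tested genes (black, ± SE), with blue ticks for other processing settings and orange ticks for leaving out 1 pool. Id1 stays between 0.71 and 1.01 and Id3 between 0.54 and 0.86, while Bmp4 and Bmp7 lie on both sides of 0.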

How the data were processed

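RNA was extracted with Trizol and its cDNA amplified before labelling, per the labels' protocols. The authors' background correction and normalization were not given in the sources used. Judged by their values, the deposited numbers are log2 ratios between channels; 436 values at a shared ceiling of 16.61 were treated as missing, and 232 control spots were left out. Arrays were turned to caudal over rostral by their dye labels and not centred, and the 2 arrays of a pool were averaged when both were measured.

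The fit used limma 3.58.1 (R 4.3.3) on pool values, with a coefficient for each strain (lmFit, eBayes, two-sided, 2.69 prior and at most 3 residual degrees of freedom). A probe with a missing pool was fitted on its measured pools. Adjusted p values are Benjamini-Hochberg over 11855 probes at a threshold of 0.05, SEs are limma's moderated SEs, and a p reflects only how far pools differ. Single genes were also tested by exact sign changes of pool values. The fit was tested on simulated data. GEO's platform annotation named 1 gene for 16632 probes, several for 139 and none for 4995, and the symbol of 15952 of the 16632 probes was found in RefSeq GRCm38.p6.

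Named were all 9 genes, the probe of smallest p of each pathway or tissue list and the 5 probes nearest to Id1 and Id3; any other gene named was picked with its values in view. The 9 genes and the lists were chosen with earlier results of these data known. Alternatives covered centring, scaling, the probe filter, the dye exchange, ceiling values, probe averaging, the variance model, pool weights, the threshold, a replicate block and leaving out each pool. Plots came from matplotlib 3.10.9 (Python 3.11.15).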

Additional observations from a re-analysis of the deposited data

Results flagged for a closer look

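None of the 6 tested genes had a single lowest or highest pool set apart from the rest by a large share of the range. This rule misses pools that lie apart together, as MF1 pools 2 and 3 did for Id1, at 1.51 and 1.53. None of the 6 had a strain difference with an unadjusted limma p under 0.05. Among the 24 probes named by the rules above, 5 markers of other tissues had one for the MF1 minus C57 difference. Of all tested probes, 0.548% had one upward and 1.33% downward. The 24 include the probe of smallest p of each list, so they were not drawn evenly from all probes. By limma's interaction term the difference was -0.97 ± 0.37 for Ttr, 1.81 ± 0.67 for Esam, -0.75 ± 0.30 for Hbb-y, -2.32 ± 0.39 for Krt18 and -1.63 ± 0.31 for Dlx2, and none passed an adjusted p of 0.05.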

How the results depend on the processing

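Under the 20 alternatives that gave a value, Id1 stayed between 0.71 and 1.01 for the mean of both strains, Id2 between 0.16 and 0.41, Id3 between 0.54 and 0.86 and Msx2 between 0.07 and 0.46, all positive. None of the 6 genes passed an adjusted p of 0.05 in any of them; the smallest adjusted p was 0.149 for Id1 (without MF1 pool 1) and 0.174 for Id3 (10 arrays fitted singly with a dye term, centred). In MF1 alone it was 0.0607 for Id1 without MF1 pool 1. The median of the 6 genes ran from 0.18 to 0.41, and without single pools from 0.19 to 0.41. Centring moved the median of all tested probes from 0.09 to 0.04, Id1 to 0.76 and Id3 to 0.65, with unadjusted p values of 0.00676 and 0.00659. Without C57 pool 2 these were 0.0828 for Id1 and 0.13 for Id3, and without C57 pool 1 0.0545 for Id1 and 0.0381 for Id3.

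Bmp4 over both strains was -0.0196 using only arrays whose rostral RNA was in Cy5 (-0.11 in MF1), and ran from -0.0734 to 0.37 when single pools were left out. Bmp7 turned to -0.00112 with centring and -0.0496 with scaling as well, and ran from -0.29 to 0.34 without single pools; it was not among probes complete in all 5 pools. In C57, Bmp4 ran from -0.34 to 0.54 and Msx2 from -0.0385 to 0.74 without single pools. The strain difference of Id1 ran from 0.27 with scaling to 1.02 without MF1 pool 1. That of Id3 turned to -0.22 with scaling and ran from -0.18 to 0.47 without single pools. The cause of these turns was not tested.

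Over all probes and both strains, 1 probe passed with scaling, 1 with 10 arrays and a dye term, and 8 with centring added; in C57, 2 passed with scaling and 2 with the centred dye term. In MF1, the count ran from 0 to 37 without single pools, with 37 without MF1 pool 1 and 24 without MF1 pool 3. None of these was one of the 6 genes. In all other settings 0 passed, while the reported fit had an unadjusted p under 0.05 for 367 probes over both strains, 469 in MF1 alone, 214 in C57 alone and 223 for the strain difference.

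Pool numbers name pools of different mice in the 2 strains and were not taken to pair them; the correlation of pool 1 minus pool 2 between the strains was 0.07 across probes. With the pool number as a replicate block, on 8924 complete probes, 0 probes passed, Id1 was 0.71, Id3 0.58 and the strain difference of Id3 -0.0935; the block leaves MF1 on its pools 1 and 2.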

Other observations

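The 36 probes with a positive ratio on all 10 arrays, Id1 and Id3 among them, were looked at after their values were seen, and 34 of the 36 carry a gene symbol. They include 1 probe of Nr2f1, a caudal regulator of the cortex, at 1.85 ± 0.22 (SE, n = 5 pools), Ttr at 1.68 ± 0.19, the WNT receptor Fzd7 at 1.01 ± 0.16, the receptor Epha3 at 1.01 ± 0.22 and Rspo3, an enhancer of WNT signalling from the hem, at 0.99 ± 0.16. Neurod1 at 0.74 ± 0.14, Gpc3, a heparan sulfate proteoglycan, at 0.71 ± 0.20 and another probe of Ccnd2 at 0.68 ± 0.19 were among them as well. No other gene of the BMP lists was in this set. Only the 8924 probes measured on all 10 arrays could enter it, and 0.403% of them did. The lists of further BMP genes had 15 tested probes, some without a value in every pool, so their absence says little.

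On the rostral side, 19 probes were negative on all 10 arrays. Among them were Spry1 at -1.28 ± 0.14, Mpped2, a phosphoesterase, at -1.27 ± 0.14, both probes of Sfrp1, a secreted WNT antagonist, at -1.17 ± 0.19 and -1.08 ± 0.15, and Mest, an imprinted gene, at -0.99 ± 0.20. No BMP or Id gene was among the 19, which came from the same 8924 probes.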
